A study of Sus scrofa with 12 samples.

Results

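Spermatogonial stem cells are the germline stem cells of the testis, and 10 genes that mark or maintain them or their first progeny were followed here in an inbred pig, the Banna mini-pig inbred line (BMI). The genes are ZBTB16, GFRA1, ID4, UCHL1, ETV5, NANOS2, NANOS3, SALL4, DMRT1 and KIT. They were found by name, and 8 of the 10 stood under their own symbol among the 30640 gene rows of the count tables. NANOS2 stood under its Ensembl identifier, and SALL4 was not analysed here. The tissues were testis and epididymis, the duct in which sperm mature, each with 5 short-read RNA libraries. The animals were adult, untreated boars, and the file headers give the same 5 animals for both tissues. The labels give an age of 12 months for all, while the headers give 11, 12 or 17 months. The age of 17 months belongs to replicate 4 of both tissues alone. The labels name neither the stretch of the duct nor the part of the testis that was taken, and they describe no sorting of cells.

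In the adult testis these stem cells lie on the basement membrane of the seminiferous tubule and are a small minority of all germ cells. Sertoli cells and peritubular cells supply GDNF, a growth factor that binds GFRA1 and the receptor kinase RET on the stem cell and, in mouse, keeps it renewing itself through transcription factors such as ETV5 and ID4. Spermatogonia that leave the stem cell state take up KIT, the receptor of stem cell factor, and later enter meiosis. Many of these genes have other sites of expression, among them nerve for UCHL1, mast cells for KIT, Sertoli cells for DMRT1 and epithelia for ID4. In bulk tissue, fewer cells of a type and less RNA per cell cannot be told apart.

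The testis libraries held 18715154 to 30211957 reads and the epididymis libraries 17980578 to 21937263. Levels are read counts scaled to a library total of 1000000 (CPM). The labelled tissues were checked with markers of their cells. Markers of germ cells of all stages summed to 1589 to 1834 CPM in testis and 3.31 to 17.1 CPM in epididymis, and those of Leydig cells to 12144 to 19341 CPM in testis and 26.6 to 33.7 CPM in epididymis. Markers of the epididymal epithelium summed to 25.9 to 38.1 CPM in testis and 7830 to 12706 CPM in epididymis. The content of the libraries also differed. Small structural RNAs without poly(A) tails reached 15042 to 16185 CPM in 4 testis libraries but only 70.8 CPM in replicate 4 of that tissue, against 71.7 to 132 CPM in the epididymis libraries. Histone RNA likewise reached 2030 to 2915 CPM in those 4 and 76.1 CPM in replicate 4, against 59.8 to 295 CPM in epididymis. For both classes testis replicate 4 thus lay at the level of the duct libraries, and in the other 4 testis libraries tissue and RNA content cannot be told apart. Epididymis replicate 3 had the most RNA of spermatids and sperm in its tissue, with a marker sum of 515 CPM against 70.0 to 163 CPM in the other 4.

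The 10 genes did not behave as a group. DMRT1, KIT, NANOS3 and, less stably, ETV5 were higher in testis, and ID4, GFRA1 and, less stably, ZBTB16 were higher in epididymis. UCHL1 did not pass the test. DMRT1 came closest to a testis gene, with a mean 141-fold above the epididymis, while ID4 was 26.6-fold higher in the duct. In edgeR's quasi-likelihood test with Benjamini-Hochberg adjustment, 4 of the 8 genes were called higher in testis and 3 in epididymis at an adjusted p of 0.05. Over all 17225 genes tested, 36.6% were called higher in testis and 37.8% in epididymis, 74.4% in either direction, which is the background for these 7 of 8 genes. For changes beyond 2-fold (edgeR's glmTreat), DMRT1 and KIT passed in testis and ID4 in epididymis, against 27.3% and 23.4% of all genes. The p-values measure the spread between 5 boars of a tissue, and the test does not use that both tissues come from the same animals.

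**Figure D1:**
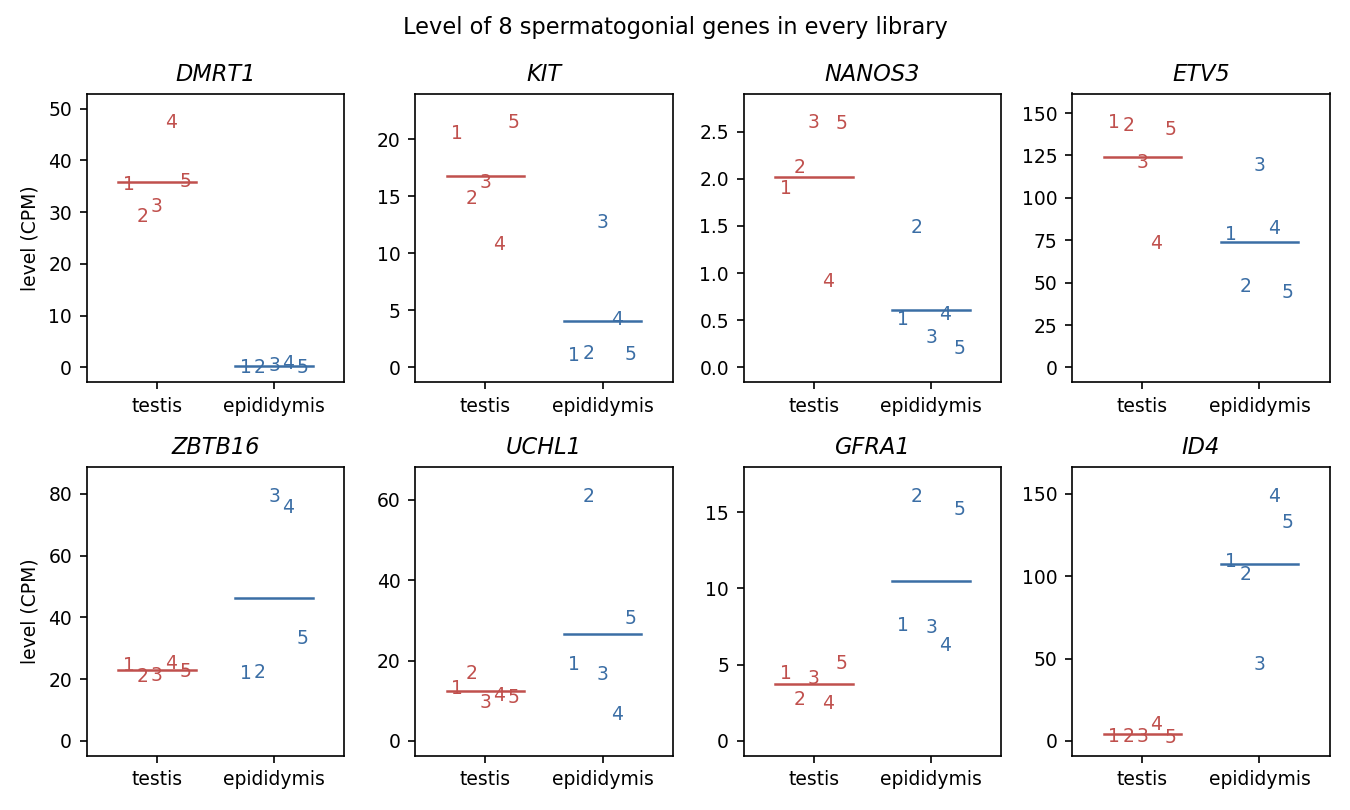
Level of each of the 8 genes in every library, as CPM on linear axes that differ between panels; each digit is the replicate number of 1 library and the horizontal line is the mean of 5. DMRT1 shows testis libraries at 29.2 to 47.2 CPM and epididymis libraries at 0 to 0.779 CPM, ID4 shows the opposite order, and 5 of the 8 genes have overlapping tissues. Of all genes tested, 32.1% have testis libraries wholly above the epididymis and 29.3% wholly below, and the rest overlap.

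Of the receptors, GFRA1 was lower in testis and KIT was higher. GFRA1, the cell surface receptor that binds GDNF and marks the most primitive spermatogonia in mouse and pig (chromosome 14, 126273558 to 126499957), had 4.46, 2.71, 4.07, 2.46 and 5.09 CPM in testis replicates 1 to 5. In epididymis replicates 1 to 5 it had 7.59, 16.0, 7.43, 6.23 and 15.2 CPM. All testis libraries lay below all epididymis libraries, and epididymis replicates 2 and 5 were the highest. Testis libraries that lie wholly below the epididymis were found for 29.3% of all genes tested. The log2 fold change was -1.48 ± 0.36 (SE), with a 95% interval of -2.27 to -0.69 and an adjusted p of 0.00275 in edgeR's quasi-likelihood test, a level 2.79-fold higher in the epididymis. A change beyond 2-fold was not called (edgeR's glmTreat, adjusted p = 0.0625).

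KIT, the receptor kinase taken up by differentiating spermatogonia (chromosome 8, 41402334 to 41492306), had 20.5, 14.8, 16.2, 10.7 and 21.4 CPM in testis replicates 1 to 5. Its levels in epididymis replicates 1 to 5 were 1.02, 1.21, 12.7, 4.23 and 1.13 CPM. The tissues overlapped through epididymis replicate 3, which reached 78.3% of the testis median, while replicates 1, 2 and 5 lay at 6.27% to 7.42% of it. The log2 fold change was 2.10 ± 0.65 (SE), with a 95% interval of 0.67 to 3.53 and an adjusted p of 0.0116 in edgeR's quasi-likelihood test. In all 5 boars the testis value was the higher of the pair. Without epididymis replicate 3 the log2 fold change was 3.17 (edgeR adjusted p = 3.4e-05), and with the boar as a block it was 2.79 (edgeR adjusted p = 0.00504). The change beyond 2-fold had an adjusted p of 0.0451 in edgeR's glmTreat and held in 7 of 19 settings.

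Markers of other cells moved with KIT in the duct. The sum of 3 mast cell markers other than KIT was 2.45 to 3.11 CPM in testis, and 2.14, 1.26, 26.5, 16.4 and 5.58 CPM in epididymis replicates 1 to 5. Replicates 3 and 4 were thus the highest of the epididymis libraries for KIT and for the mast cell markers. Germ cell markers in epididymis replicates 3 and 4 reached 0.981% and 0.491% of the testis median, and spermatid markers 3.52% and 1.11%, against 78.3% and 26.0% for KIT in the same libraries. The part of either cell type in the KIT level was not tested.

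Of the transcription factors, DMRT1 had the largest fold change of the 8 genes. DMRT1, a DNA-binding protein of the DM domain family that mouse spermatogonia need and that Sertoli cells express too (chromosome 1, 220841485 to 220953442), had 35.4, 29.2, 31.2, 47.2 and 35.9 CPM in testis replicates 1 to 5. The epididymis libraries had 0.0509, 0, 0.456, 0.779 and 0 CPM, from 1, 0, 10, 14 and 0 reads. Every testis library lay above every epididymis library, which 32.1% of all genes tested also showed. A count of 0 allows 3 reads, or up to 0.167 CPM in the shallowest epididymis library. The log2 fold change was 7.14 ± 0.76 (SE), with a 95% interval of 5.52 to 8.83 and an adjusted p of 4.8e-06 in edgeR's quasi-likelihood test. Most epididymal reads came from replicates 3 and 4, and without both 1 read was left in the duct. Without replicate 4 alone the log2 fold change was 7.99. Summed Sertoli cell markers lay at 425 to 502 CPM in testis and 85.4 to 156 CPM in epididymis, but single markers differed widely. Mean levels in testis and epididymis were 82.2 and 50.6 CPM for AMH, and 130 and 34.4 CPM for CLDN11. For GATA4 they were 156 and 0.0947 CPM, and for FSHR 9.95 and 0.0274 CPM. These markers were picked out after their values were seen. The part of Sertoli cells in the DMRT1 level was not tested.

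ETV5, an ETS factor that GDNF and FGF signals induce in mouse spermatogonia (chromosome 13, 123873346 to 123930292), was abundant in both organs. Testis replicates 1 to 5 had 144, 142, 121, 72.9 and 140.1 CPM, and epididymis replicates 1 to 5 had 78.4, 47.9, 119, 81.9 and 43.9 CPM. The tissues overlapped, because testis replicate 4 lay at the level of the duct and epididymis replicate 3 close to the testis. ETV5 was higher in testis by a log2 fold change of 0.78 ± 0.28 (SE; 95% interval 0.16 to 1.40), with an adjusted p of 0.0254 in edgeR's quasi-likelihood test, and in 4 of 5 boars. The call was lost without testis replicate 2 (edgeR adjusted p = 0.0533), epididymis replicate 2 (0.0502) or epididymis replicate 5 (0.0632).

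ID4, an inhibitor of DNA binding that marks the stem cells of the mouse testis (chromosome 7, 15281535 to 15284895), was a duct gene in these boars. Testis replicates 1 to 5 had 2.56, 2.58, 2.64, 10.3 and 2.22 CPM, whereas epididymis replicates 1 to 5 had 109, 101, 46.2, 148 and 133 CPM. No testis library reached the epididymis, and testis replicate 4 stood far above the other testis libraries. The log2 fold change was -4.73 ± 0.52 (SE; 95% interval -5.87 to -3.60), with an adjusted p of 6.5e-06 in edgeR's quasi-likelihood test. Without testis replicate 4 it was -5.39, and the change beyond 2-fold held in all 19 settings.

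ZBTB16, also called PLZF, is a zinc finger repressor that mouse stem cells need to persist (chromosome 9, 41639536 to 41839254). It was the steadiest of the genes in testis, with 24.3, 21.0, 21.2, 25.2 and 22.4 CPM in replicates 1 to 5 and a coefficient of variation of 8.26%. Epididymis replicates 1 to 5 had 21.7, 22.1, 79.2, 75.6 and 33.3 CPM, a coefficient of variation of 61.9%. Epididymis replicates 1 and 2 were within the testis range, and replicates 3 and 4 were well above it. ZBTB16 was higher in epididymis, with a log2 fold change of -0.97 ± 0.35 (SE; 95% interval -1.73 to -0.21) and an adjusted p of 0.0238 in edgeR's quasi-likelihood test. The call held in 9 of 18 other settings. It was lost with the boar as a block (log2 fold change -0.77, edgeR adjusted p = 0.0637) and without epididymis replicates 3 and 4 (log2 fold change -0.23, edgeR adjusted p = 0.328). It was also lost without epididymis replicate 3 or 4 alone (log2 fold changes -0.72 and -0.78, edgeR adjusted p = 0.054 and 0.06). Without testis replicate 1, 2, 3 or 5 the log2 fold change stayed at -0.94 to -0.90, with edgeR adjusted p-values of 0.0523 to 0.0649.

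The NANOS genes encode RNA-binding zinc finger proteins of the germline. NANOS3, which in mouse protects early germ cells and marks spermatogonia beyond the most primitive ones, had 1.90, 2.12, 2.59, 0.908 and 2.59 CPM in testis replicates 1 to 5. Its levels in epididymis replicates 1 to 5 were 0.509, 1.48, 0.319, 0.556 and 0.196 CPM. The overlap came from testis replicate 4, the lowest of its tissue, and epididymis replicate 2, the highest of its own. NANOS3 was higher in testis, with a log2 fold change of 1.74 ± 0.53 (SE; 95% interval 0.60 to 2.91), an adjusted p of 0.00961 in edgeR's quasi-likelihood test, and the same direction in 5 of 5 boars. Without epididymis replicate 2 the log2 fold change was 2.39.

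NANOS2, which keeps mouse stem cells undifferentiated (row ENSSSCG00000003096, chromosome 6, 52218889 to 52219834), was near the limit of these libraries. It had 2, 2, 3, 0 and 9 reads in testis replicates 1 to 5 and 0 reads in each of the 5 epididymis libraries. The 16 testis reads correspond to 0.140 CPM over the pooled testis libraries, and the floor of 3 reads over the epididymis is 0.0305 CPM. Against that floor the level was at least 4.58-fold higher in testis, and at least 2.55-fold higher without testis replicate 5, which held most of the reads. There was no test, because the gene fell below the filter on low counts, and the bound does not include the counting error of the testis reads. Testis replicate 4 was the library without a read.

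UCHL1, a ubiquitin hydrolase used as a marker of gonocytes and spermatogonia in the pig and abundant in neurons (chromosome 8, 32353766 to 32367288), was not called. Testis replicates 1 to 5 had 13.2, 16.9, 9.58, 11.3 and 10.9 CPM, and epididymis replicates 1 to 5 had 18.9, 60.8, 16.6, 6.51 and 30.5 CPM. The duct spanned the testis range on both sides, with epididymis replicate 2 the highest library and replicate 4 the lowest. The log2 fold change was -1.12 ± 0.49 (SE; 95% interval -2.19 to -0.044), and the adjusted p was 0.0566 in edgeR's quasi-likelihood test. Without epididymis replicate 4 the gene was called higher in epididymis (log2 fold change -1.39, edgeR adjusted p = 0.00684), and so it was without replicate 3 (edgeR adjusted p = 0.0324). Without epididymis replicate 2 the log2 fold change was -0.54 (edgeR adjusted p = 0.232). Markers of nerve and Schwann cells summed to 61.4 to 85.9 CPM in testis and to 37.0, 49.7, 16.7, 28.3 and 55.5 CPM in epididymis replicates 1 to 5. Epididymis replicates 2 and 5 were the highest of the duct for both UCHL1 and the nerve markers, and the part of nerve in the level was not tested.

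**Figure D2:**
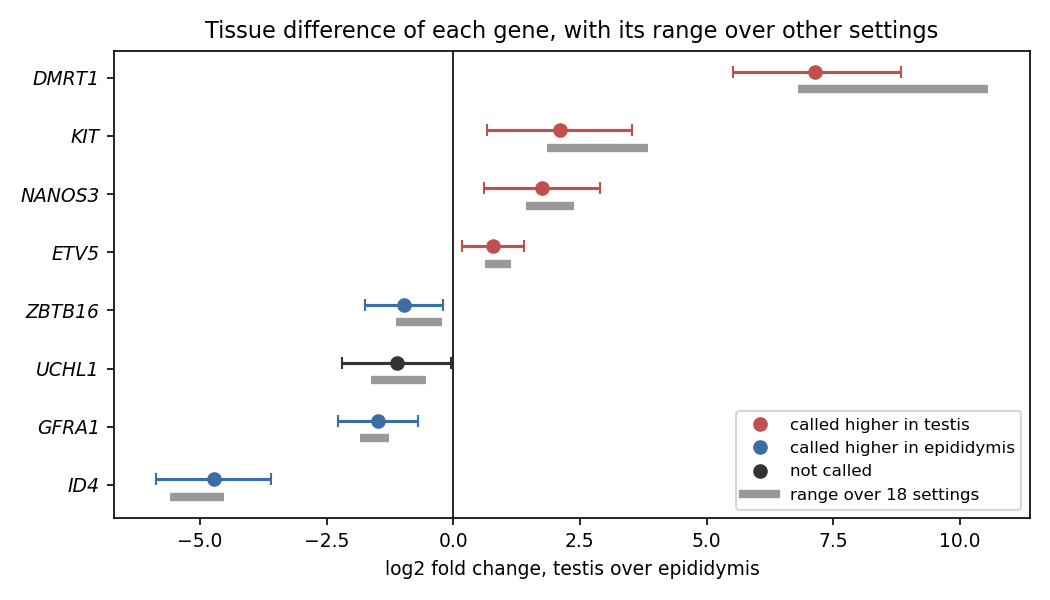
Log2 fold change, testis over epididymis, of the 8 genes; points are the estimates with 95% intervals and grey bars the range over 18 other settings. DMRT1 at 7.14 and ID4 at -4.73 stand at the ends, and the intervals of ETV5, ZBTB16 and UCHL1 reach close to 0.

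Presence alone set few of the genes apart. The shares of all genes detected in testis alone, in epididymis alone or in both tissues were not counted. Nothing particular to these genes is therefore read from the detection counts that follow. With at least 1 CPM in at least 3 of the 5 libraries counted as detected, DMRT1 and NANOS3 were detected in testis alone, 6 genes in both tissues and 0 in epididymis alone. At a minimum of 0.5 CPM, DMRT1 was the only gene detected in testis alone, and at 2 CPM KIT joined DMRT1 and NANOS3, 3 genes in all. At 1 CPM, KIT and ETV5 were shared and higher in testis, with KIT at 1.02 to 1.21 CPM in 3 of the duct libraries. The ETV5 call held in 15 of 18 other settings. ID4 and GFRA1 were shared and higher in the duct in all settings. ZBTB16 was shared and called higher in the duct in 9 of 18 other settings, and UCHL1 was shared without a call.

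Levels of different genes were compared per length, as CPM divided by the length of the gene model in kilobases (RPKM). In testis the order was ETV5 at 29.9 ± 7.25, DMRT1 at 16.2 ± 3.18, UCHL1 at 7.97 ± 1.82 and ZBTB16 at 4.51 ± 0.372 RPKM (SD, n = 5). KIT followed at 3.21 ± 0.837, ID4 at 2.77 ± 2.38, NANOS3 at 1.27 ± 0.435, GFRA1 at 0.745 ± 0.225 and NANOS2 at 0.325 ± 0.337 RPKM. The ranges of the neighbours DMRT1 and UCHL1, UCHL1 and ZBTB16, and ZBTB16 and KIT did not overlap, and those of all other neighbours did. In epididymis ID4 led with 73.5 ± 26.7 RPKM, before ETV5 at 17.9 ± 7.31, UCHL1 at 17.2 ± 13.5 and ZBTB16 at 9.16 ± 5.67 RPKM. GFRA1 had 2.08 ± 0.934, KIT 0.778 ± 0.963, NANOS3 0.385 ± 0.318 and DMRT1 0.117 ± 0.158 RPKM there. ID4 did not overlap with ETV5, nor ZBTB16 with GFRA1, while all other neighbours overlapped. Of the 8 genes, DMRT1 was next to the top in testis and last in the duct.

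**Figure D3:**
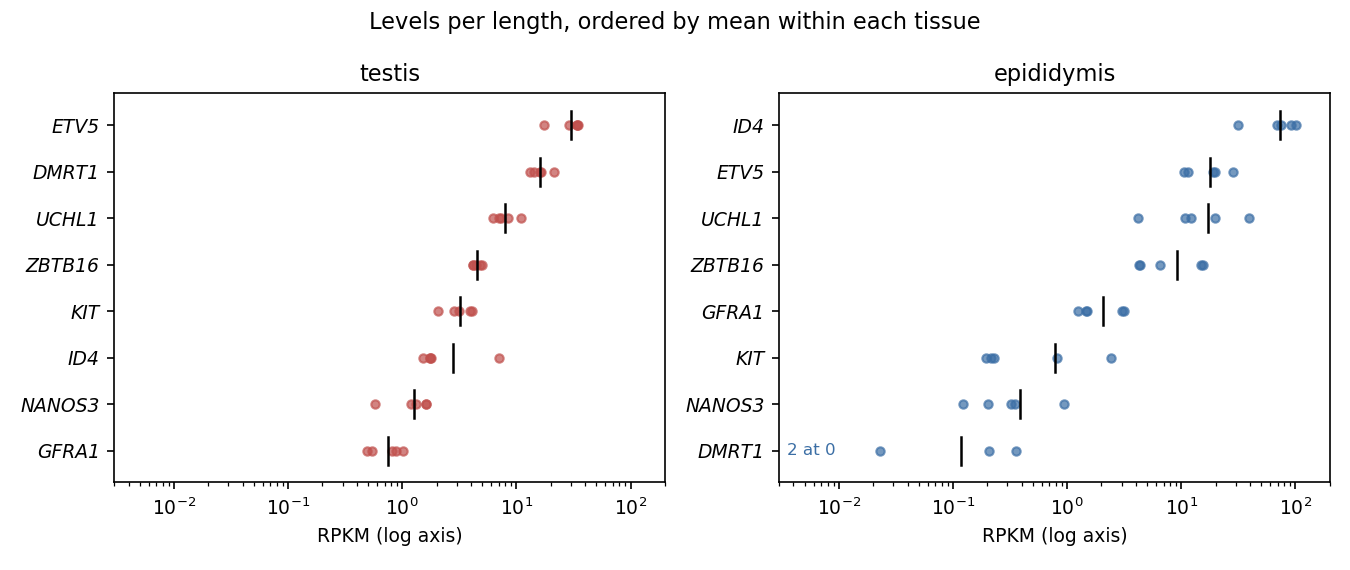
Level per length (RPKM, log axis) of the 8 genes in testis on the left and epididymis on the right, ordered by the mean within each tissue; points are libraries, black bars are means, and libraries at 0 are given as a number. ETV5 and DMRT1 lead in testis, ID4 leads in epididymis and DMRT1 is last there, with 2 libraries at 0.

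Ratios of genes within 1 library do not depend on its depth. KIT over GFRA1, a differentiation receptor over a stem cell receptor, was 3.86 to 5.26 per length in the 5 testis libraries, with a median of 4.22. In the epididymis libraries it was 0.0717 to 1.66, with a median of 0.130, and replicates 3 and 4 gave 1.66 and 0.656. The DMRT1 over ZBTB16 ratio was 3.20 to 4.30 in testis and 0 to 0.0237 in epididymis. The tissues did not overlap in either ratio, nor did they in GFRA1 and DMRT1 taken alone.

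The libraries of the duct varied more than those of the testis for 7 of the 8 genes. The coefficient of variation in testis was 8.26% to 34.2% for those 7, and in epididymis it was 40.9% to 136%. ID4 was the exception, with 85.7% in testis and 36.4% in epididymis. DMRT1, which gave the 136%, had 0 to 14 reads in the duct libraries and NANOS3 had 4 to 27, so counting error enters their values. The share over all genes was not counted, so nothing particular to these genes is read from the 7 of 8. In testis, replicate 4 was the lowest library for ETV5, NANOS3, KIT and GFRA1 and the highest for DMRT1, ZBTB16 and ID4. In epididymis, replicates 3 and 4 were the highest for DMRT1, KIT and ZBTB16, and replicates 2 and 5 were the highest for GFRA1 and UCHL1 and the lowest for ETV5. Smooth muscle markers were also lowest in epididymis replicates 3 and 4, at 6458 and 5384 CPM, against 10215 to 15070 CPM in the other 3. The part of these differences in cell content, or in the age of 17 months that the headers give for replicate 4, was not tested.

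**Figure D4:**
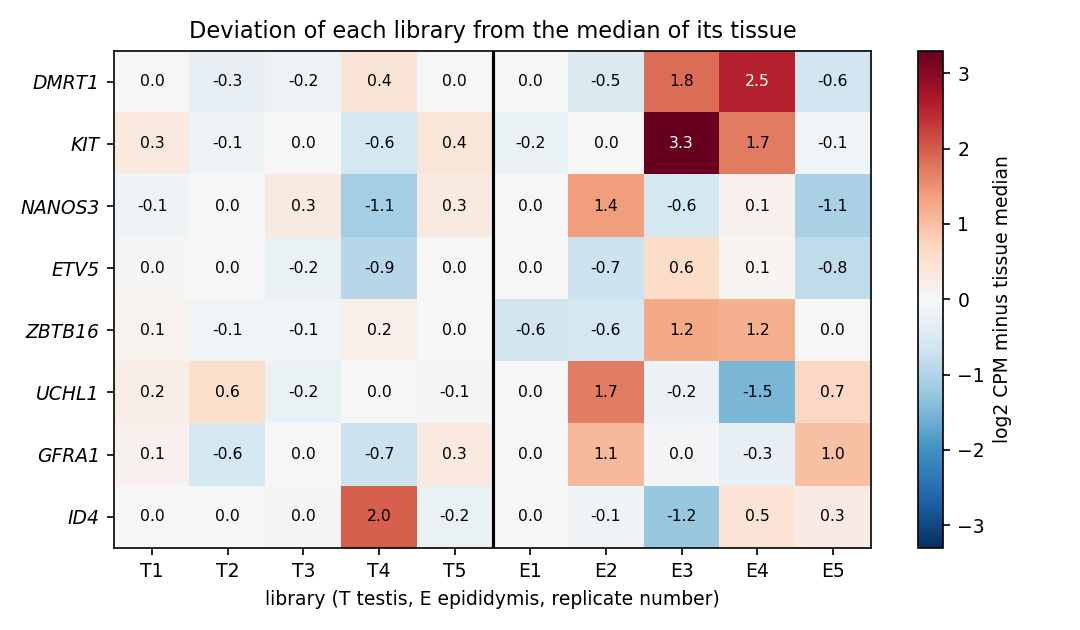
Deviation of each library from the median of its tissue in log2 CPM (prior count 2), for the 8 genes in testis (T1 to T5) and epididymis (E1 to E5). Red is above and blue below the median; KIT deviated by 3.29 in E3 and ID4 by 1.96 in T4.

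The other genes of the pathway came from lists of 88 genes, of which 66 were tested, with 20 calls towards testis and 26 towards epididymis. These counts, and those of each list in turn, stand against the 36.6% and 37.8% of all genes called in the same directions, and nothing particular to a list is read from them. The list of GDNF ligands and receptors had 6 tested genes, with 3 called higher in testis, 1 in epididymis and a median log2 fold change of 0.83, against -0.07 over all genes. GFRA4, a receptor of the same family, had 24.9 ± 0.735 CPM in testis and 1.59 ± 0.666 CPM in epididymis (SD, n = 5 each), a log2 fold change of 3.98 (edgeR adjusted p = 5.5e-07). GFRA2, the neurturin receptor, was also higher in testis, with a log2 fold change of 1.23 (edgeR adjusted p = 0.0208). Of the same list, RET and GDNF were picked out after their values were seen. RET, the kinase that GFRA1 works through, had 8.60 ± 1.54 CPM in testis and 1.27 ± 1.01 CPM in epididymis, a log2 fold change of 2.79 (edgeR adjusted p = 0.000201). GDNF itself had 0.831 ± 0.0965 CPM in testis and 0.902 ± 0.324 CPM in epididymis and was not called (edgeR adjusted p = 0.782); its sign turned with DESeq2's size factors (log2 fold change 0.017). GFRA1 and its co-receptor RET differed between the tissues in opposite directions. NCAM1, an alternative GDNF receptor partner, was higher in epididymis with a log2 fold change of -2.54 (edgeR adjusted p = 0.00592), which was -1.16 without epididymis replicate 3.

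Of 11 tested genes in a list of other undifferentiated spermatogonia genes, 4 were called higher in testis and 2 in epididymis, beside 36.6% and 37.8% of all genes, with a median log2 fold change of 0.73. TAF4B, a germ cell subunit of the general transcription machinery, had 28.7 ± 6.20 CPM in testis and 2.07 ± 0.580 CPM in epididymis (log2 fold change 3.83, edgeR adjusted p = 1.7e-07). FOXO1, a regulator of mouse stem cell maintenance, was higher in testis by 0.90 on the log2 scale (edgeR adjusted p = 0.000645). PAX7, a marker of rare stem cells in mouse that was picked out after its values were seen, had 400 reads in testis and 0 in epididymis, at least 114.5-fold higher against a floor of 3 reads over the tissue. FGFR3 and DUSP6, an FGF receptor and a phosphatase of the ERK pathway, were higher in epididymis, with log2 fold changes of -3.13 (edgeR adjusted p = 6.8e-07) and -2.39 (edgeR adjusted p = 0.000115).

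Of 9 tested surface proteins used to sort spermatogonia, 0 were higher in testis and 6 were higher in epididymis at an adjusted p of 0.05 in edgeR's quasi-likelihood test, beside 36.6% and 37.8% of all genes, with a median log2 fold change of -3.70. At an unadjusted p under 0.05 the count towards testis was also 0, while DESeq2's test called 1, THY1 (adjusted p = 0.0118). THY1 was also called higher in testis by edgeR with DESeq2's size factors (adjusted p = 0.022). The same call came without epididymis replicate 5 (edgeR adjusted p = 0.0316) or testis replicate 1 (edgeR adjusted p = 0.043). EPCAM, an epithelial adhesion molecule, had 10.2 ± 6.49 CPM in testis and 577 ± 103 CPM in epididymis (log2 fold change -5.83, edgeR adjusted p = 1.9e-07). CDH1, the cadherin of epithelia, had 5.64 ± 1.23 CPM in testis and 353 ± 122 CPM in epididymis (log2 fold change -5.94, edgeR adjusted p = 4.7e-08). Both are general epithelial genes.

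Of 4 tested genes of differentiating and premeiotic spermatogonia, 3 were called higher in testis and 0 in epididymis by edgeR's test, beside 36.6% and 37.8% of all genes, with a median log2 fold change of 2.53. The count of 0 was the same at an unadjusted p under 0.05 and with DESeq2. REC8, a meiotic cohesin subunit, had 158 ± 26.4 CPM in testis and 7.34 ± 5.53 CPM in epididymis (log2 fold change 4.43, edgeR adjusted p = 4.2e-06). DNMT3B, a DNA methyltransferase, was higher in testis by 1.56 on the log2 scale (edgeR adjusted p = 3.5e-05). STRA8, the retinoic acid target at the entry into meiosis, was picked out after its values were seen and had 11.7 ± 1.69 CPM in testis and 1.08 ± 1.24 CPM in epididymis.

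Of 19 tested growth factors and receptors of the niche, 2 were called higher in testis and 10 in epididymis, beside 36.6% and 37.8% of all genes, with a median log2 fold change of -0.97. WNT5A, a secreted signal of Sertoli cells in mouse, and NRG3, a neuregulin, were higher in testis, with log2 fold changes of 2.18 (edgeR adjusted p = 0.000599) and 6.22 (edgeR adjusted p = 4.6e-06). NRG3 had 1.92 ± 0.922 CPM in testis and 0.0202 ± 0.0279 CPM in epididymis. IGF1R and CXCR4, the receptors of IGF1 and of the chemokine CXCL12, were higher in epididymis, with log2 fold changes of -1.85 (edgeR adjusted p = 0.000229) and -3.25 (edgeR adjusted p = 9.4e-05). The KIT ligand KITLG, picked out after its values were seen, had 6.47 ± 0.968 CPM in testis and 10.6 ± 6.22 CPM in epididymis and was not called (edgeR adjusted p = 0.102), but it was called higher in epididymis without epididymis replicate 5 (edgeR adjusted p = 0.0252).

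**Figure D5:**
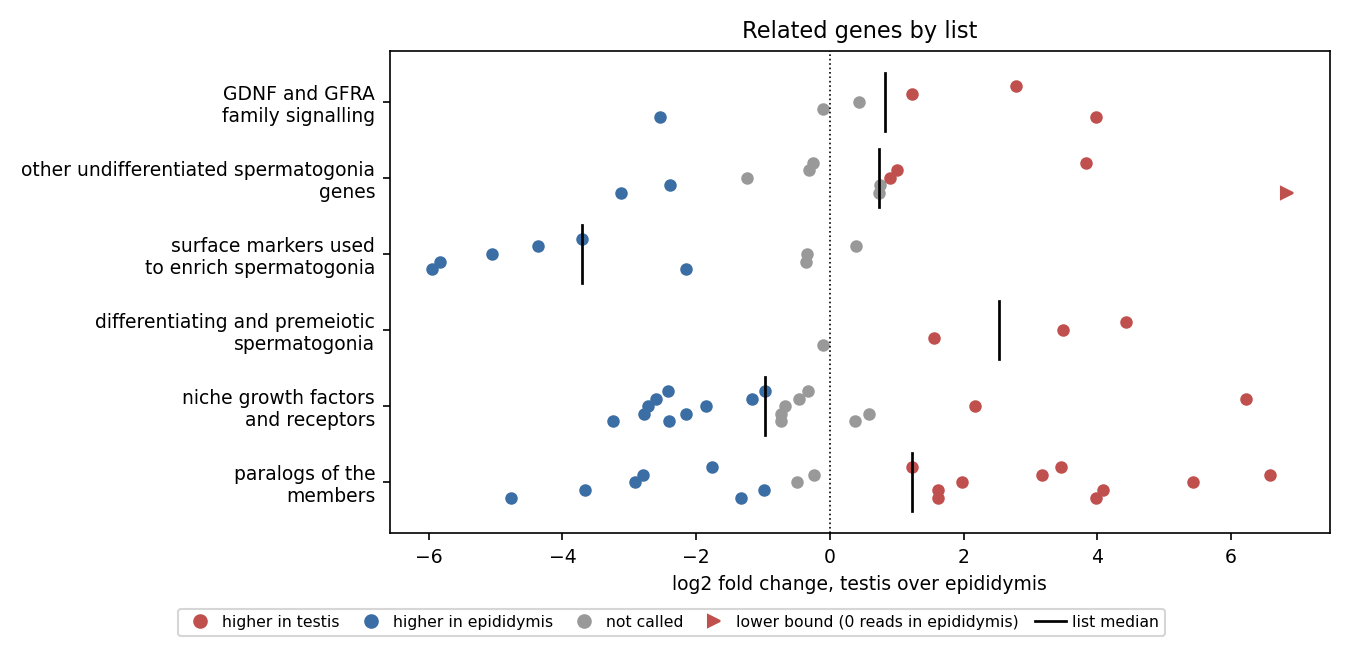
Log2 fold change, testis over epididymis, of the tested genes of 6 lists; red points were called higher in testis, blue points higher in epididymis and grey points not called, the black line is the list median, and the triangle is the lower bound of PAX7. Surface markers lie at or left of 0 apart from 1 uncalled gene, and the paralogs spread to both sides.

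Of 19 paralogs of the 10 genes tested, 10 were called higher in testis and 7 in epididymis, beside 36.6% and 37.8% of all genes, with a median log2 fold change of 1.23. The other ID genes stood with ID4, as ID1, ID2 and ID3 were higher in epididymis with log2 fold changes of -1.77, -3.66 and -2.92 (edgeR adjusted p = 0.000452, 1.8e-05 and 1.8e-05). Relatives of DMRT1 stood with it, as DMRT2, DMRT3, DMRTA1 and DMRTA2 were higher in testis by 3.45, 5.43, 1.98 and 4.09 on the log2 scale (edgeR adjusted p = 0.00986, 2.9e-05, 0.00377 and 4.4e-05). The ETS genes differed, since ETV1 was higher in testis by 1.62 and ETV4 lower, with a log2 fold change of -2.80 (edgeR adjusted p = 0.00128 and 0.00115). NANOS1 was higher in epididymis, with 0.104 ± 0.157 CPM in testis and 2.67 ± 2.26 CPM in epididymis (log2 fold change -4.77, edgeR adjusted p = 0.000602). Among the SALL genes, SALL3 was higher in testis with a log2 fold change of 6.59 (edgeR adjusted p = 3e-07) and SALL2 higher in epididymis with -0.99 (edgeR adjusted p = 0.00609). UCHL3 was higher in testis by 1.61 (edgeR adjusted p = 0.000323), and UCHL5 was not called (edgeR adjusted p = 0.137) but was called higher in epididymis without testis replicate 4 (log2 fold change -0.84, edgeR adjusted p = 0.00239). Of the kinases related to KIT, FLT3 was higher in testis by 3.17 (edgeR adjusted p = 4e-05), PDGFRB was higher in epididymis with -1.33 (edgeR adjusted p = 0.000397), and PDGFRA was not called (edgeR adjusted p = 0.687). Without epididymis replicates 3 and 4, PDGFRA was called higher in testis by 1.02 (edgeR adjusted p = 0.0022).

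The genes whose levels followed ETV5 and ID4 most closely were sought among 13086 genes with a symbol, by the root mean square difference of log2 CPM over the 10 libraries, each gene centred on its mean. For ETV5 they were KIAA0319L at 0.193, JADE1 at 0.237 and NUP93 at 0.240. For ID4 they were ITM2B at 0.425, KCNK1 at 0.490 and SPINT2 at 0.511. ITM2B, the nearest to ID4, had 229 ± 96.0 CPM in testis and 4670 ± 1894 CPM in epididymis. All 10 libraries enter this measure, and it says nothing of shared control.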

How the data were processed

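Per the labels' protocols, RNA was extracted with TRIzol, enriched for poly(A) tails with oligo(dT) beads, turned into cDNA with a SMARTer kit and amplified by PCR. The submitters' processing notes name cutadapt 3.0, STAR, featureCounts of Subread and the pig build Sscrofa11.1. How strand and multimapping reads were handled, and from which annotation, is not given in the sources used here. Therefore overlapping or antisense genes and near-identical copies are uncertain. The deposited values are raw counts per gene made by the authors, whole numbers without normalization, with a gene length per the file headers. The 2 long-read samples, each a pool of 5 animals, were not analysed here.

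The 10 genes and the lists were chosen with earlier results of these data known. Of 15226 rows named by an Ensembl identifier, 822 matched a symbol in a RefSeq gene table of Sscrofa11.1 and 810 were given it. That table also gave the gene coordinates, which are of the whole gene and counted from 1. Counts were analysed in R 4.3.3 with edgeR 4.0.16: filterByExpr left 17225 genes, libraries were scaled by TMM, and tissue was the only term of a robust quasi-likelihood fit with Benjamini-Hochberg adjustment over all genes tested. Standard errors are approximate, taken as the unshrunk log2 fold change over the square root of F, and glmTreat asked for a change beyond 2-fold. The edgeR fit was tested on simulated counts, in which far fewer genes differed than between these tissues. That test therefore does not cover the scaling or the error rate of this comparison. Alternatives were DESeq2 1.42.0 as a test and as size factors, no composition factors, no filter, fewer RNA classes, the boar as a block, and libraries left out.

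A count of 0 allows 3 reads, which is 0.0993 to 0.160 CPM in a testis library and 0.137 to 0.167 CPM in an epididymis library, for counting error only, since the libraries carry no molecular identifiers. The libraries are paired because the same 5 animal numbers recur in the headers of both tissues. Deviations from the tissue means correlated across genes at 0.0072 to 0.0893 for the 5 same-numbered pairs and at -0.0841 to 0.101 for the 20 others. No libraries were identical (0 pairs), and a chi-square of paired counts, per degree of freedom, was at least 9.53 for testis pairs and 72.5 for epididymis pairs. Genes were named by a rule: the 10 genes, at most 2 called genes per direction and list with the highest mean CPM, any paralog, and the 3 nearest patterns of ETV5 and ID4. Other genes, among them RET, PAX7 and THY1, were named outside this rule, after their values were seen.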

Additional observations from a re-analysis of the deposited data

Results flagged for a closer look

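Among 64 groups of 5 libraries examined, 14 held a library whose gap to the nearest other was large for the whole range of the group. The cut-off was a gap of 0.71 of that range, taken on CPM without a logarithm. The groups share libraries, and some genes were chosen on those libraries, so the count has no chance rate to be set against. Of the 16 groups that belong to the stem cell genes, 3 did. ID4 had 10.3 CPM in testis replicate 4, against 2.22 to 2.64 CPM in the other testis libraries. NANOS3 had 1.48 CPM in epididymis replicate 2, against 0.196 to 0.556 CPM in the other 4. KIT had 12.7 CPM in epididymis replicate 3, against 1.02 to 4.23 CPM.

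Testis replicate 4 was the library set apart in 8 of the 14 groups. In this library age, animal and RNA content cannot be told apart, since the headers give 17 months and structural and histone RNAs were low. It had the highest EPCAM (21.7 CPM, others 6.35 to 8.34), UCHL3 (71.6 CPM, others 26.2 to 30.6), ITM2B (396 CPM, others 156 to 217), KCNK1 (17.8 CPM, others 9.37 to 11.4) and SPINT2 (134 CPM, others 56.3 to 65.6). It had the lowest CDH1 (3.47 CPM, others 5.99 to 6.49) and KIAA0319L (76.4 CPM, others 114 to 121). The 3 genes whose pattern was nearest to ID4 are among these, and they were chosen on the same libraries.

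In epididymis replicate 3, NCAM1 had 177 CPM (others 13.9 to 29.7) and NUP93 had 55.4 CPM (others 28.0 to 35.2). REC8 had 16.9 CPM in epididymis replicate 2 (others 3.33 to 7.18), and DNMT3B had 47.2 CPM in testis replicate 1 (others 32.2 to 34.9).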

How the results depend on the processing

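Of 144 values of the 8 genes under other settings, 128 kept direction and call, 12 lost the call, 4 gained it and 0 changed sign; all 432 values of the 24 genes named from the lists by mean level or as nearest patterns kept both. Of 863 values of the other 48 tested list genes, 804 kept both, 8 lost the call, 27 gained it, and 24 changed sign, all of genes without a call with all libraries. The genes changed beyond 2-fold numbered 3, and 5 without epididymis replicates 3 and 4, a setting chosen after seeing the data, as was leaving out testis replicate 4 with epididymis replicate 3. The genes detected in testis alone numbered 2, with 1 at 0.5 CPM and 3 at 2 CPM. Leaving out 1 library at a time gave 12351 to 13701 genes called (12814 with all), 6124 to 6980 higher in testis and 6094 to 6883 higher in epididymis. It gave 3 to 4 of the 8 genes higher in testis, 2 to 3 higher in epididymis and 2 to 4 beyond 2-fold, and 20 to 22 list genes higher in testis and 26 to 28 higher in epididymis. The boar as a replicate block gave 12362 genes called and, of the 8 genes, changed the call of ZBTB16 alone. DESeq2's size factors moved the median of all genes by 0.13 on the log2 scale, and no filter moved it by 0.38. Depth limits NANOS2 and the epididymal values of DMRT1 and NANOS3.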

Other observations

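Several stem cell or progenitor genes lay below the filter on low counts and were not tested. LIN28B, an RNA-binding protein of primitive germ cells, had 58 reads in testis and 0 in epididymis, and LIN28A had 21 in testis and 1 in epididymis. POU3F1, a POU factor, had 330 reads in testis and 20 in epididymis, and its testis libraries ranged from 0.0331 to 5.13 CPM. NEUROG3, a mark of committed progenitors in mouse, had 4 reads in testis and 0 in epididymis. ARTN, a ligand of the GDNF family, had 7 reads in testis and 70 in epididymis, with every testis library below every epididymis library. These genes were picked out after their values were seen.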
